A study of Mus musculus with 16 samples.

Results

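The 34 genes described here encode lysosomal hydrolases other than the cathepsins, and the activator proteins that work with them. They were chosen by name as glycosidases, sulfatases, lipases, non-cathepsin proteases, an acid phosphatase, a nuclease and lysozyme, and all 34 names were found among the 17951 genes listed for the RNA sequencing of sorted mouse microglia. Lysosomal hydrolases are acid enzymes made in the endoplasmic reticulum, tagged with mannose 6-phosphate in the Golgi, and carried to the lysosome, where each cuts a particular kind of bond in glycans, lipids, proteins or nucleic acids. Many act in sequence, so that the loss of a single enzyme lets its substrate pile up, and inherited loss of many of them causes a lysosomal storage disease, often with neurodegeneration. In the brain, microglia carry much of the digestion of cell debris and of protein aggregates taken up by phagocytosis.

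The study asked how microglia that had taken up Aβ differ from microglia that had not. Microglia were sorted as Cd11b+ and Cd45+ cells, with a CX3CR1+ gate in the study's methods, from mice injected with Methoxy-X04 (Me-X04), a dye that crosses into the brain and stains Aβ aggregates. The TG mice were 5xFAD, a line that expresses human transgenes with familial Alzheimer's mutations from the neuronal Thy1 promoter, and their microglia were sorted into TG Me-X04+ (4 libraries) and TG Me-X04- (5 libraries), while the WT mice carried no transgene and gave Me-X04 negative cells only (7 libraries). All mice received the dye, and same-numbered libraries of the 2 TG groups carry the same animal label. By the labels the TG mice were 6 months old and the WT mice 2 months old, whereas the study's methods give other ages that lie closer together, so age and genotype cannot be told apart in the comparisons with WT. In these bulk libraries, fewer cells of a type and less RNA per cell cannot be told apart.

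Each library held, over the listed genes, 15623664 to 22119327 reads (WT), 17216633 to 25184600 reads (TG Me-X04-) or 22430251 to 27579017 reads (TG Me-X04+). Genes of the mitochondrial genome took 11.0% to 24.1% of the reads in WT, 18.2% to 35.6% in TG Me-X04- and 27.2% to 44.8% in TG Me-X04+. The 8 microglia markers were all listed, and their summed level was 3196 to 4445 RPKM (reads scaled to the length of the gene and to the depth of the library) in WT, 2545 to 4208 in TG Me-X04- and 2459 to 3036 in TG Me-X04+. Markers of monocytes and border macrophages (6 of 8 listed, without Ly6c2 and Plac8) summed to 4.49 to 8.26, 3.67 to 9.42 and 3.92 to 21.2 RPKM in the same order. Of the 29 markers found over 8 cell types, the 2 TG groups differed in Tmem119 of the microglia (log2FC -1.58, adjusted p = 0.00821) and in Flt1 of the endothelium (log2FC 3.55, adjusted p = 0.00608), while Pecam1, the other endothelial marker listed, had a log2FC of -2.47 (adjusted p = 0.233). Once group means were subtracted, the leading principal component, with 37.8% of the remaining variance, split the 16 libraries into 7 called set A here (WT 3, Me-X04- 2, Me-X04+ 2) and 9 called set B (WT 4, Me-X04- 3, Me-X04+ 2). The study's methods name 2 sequencers without saying which library was run on which.

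Promoters are shown first because the rule by name did not use them. Transcription factors of the MiT/TFE family, which drive many lysosomal genes, are known to bind the letters TCACGTG. Windows from 250 bases before to 50 bases after the RefSeq start sites (GRCm38.p6) were at hand for 31 of the 34 genes (37 windows), with no entry for Asah1, Galns and Aga. This motif was found, on either strand, in 7 of these 37 windows (18.9%) and in 3.77% of all 32851 windows, and its last 6 letters alone in the same 7 and in 7.15% of all windows. The stretches of 30 bases around each match follow, 5′ to 3′ on the strand of the gene, with those 6 letters in capitals.
Sgsh, chr11:119355522-119355551, minus strand: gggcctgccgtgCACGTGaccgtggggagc
Glb1, chr9:114401018-114401047, plus strand: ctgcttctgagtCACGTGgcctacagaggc
Naglu, chr11:101070009-101070038, plus strand: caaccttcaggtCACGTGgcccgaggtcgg
Gaa, chr11:119267811-119267840, plus strand: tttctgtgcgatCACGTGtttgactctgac
Gla, first match, chrX:134601182-134601211, minus strand: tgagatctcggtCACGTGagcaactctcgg
Gla, second match, chrX:134601215-134601244, minus strand: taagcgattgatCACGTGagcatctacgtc
Arsa, chr15:89477423-89477452, minus strand: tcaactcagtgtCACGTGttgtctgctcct
Lgmn, chr12:102439124-102439153, minus strand: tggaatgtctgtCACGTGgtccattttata
The motif is read on the strand of the gene in all of these but Sgsh, where it stands on the other strand. In both Gla matches it stands on the other strand as well. The first base of the match lay 16 (Arsa), 29 (Sgsh), 48 (Glb1), 49 (Lgmn), 73 (Naglu), 140 (Gaa), and 194 and 227 (Gla) bases before the start site. A match is a run of letters and was not tested as a binding site.

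To compare microglia with and without Aβ among TG mice, TG Me-X04+ was set against TG Me-X04-. The fit did not pair libraries by animal, and TG Me-X04- replicate 5 had no TG Me-X04+ partner. Genes were called DE when the limma p adjusted over all genes was under 0.05 and the log2 fold change (log2FC) was 0.7 or more in either direction. Of the 34 hydrolase genes 10 were DE, beside 5.49% of all genes. There were 9 higher in TG Me-X04+ (Lyz2, Glb1, Scpep1, Gusb, Naglu, Gm2a, Man2b1, Ppt1 and Fuca1), beside 3.44% of all genes, and 1 lower (Sgsh), beside 2.06%. Of the 9, only Glb1 and Naglu had the promoter motif shown above, and Sgsh had it too. Gaa, Gla, Arsa and Lgmn, the remaining genes with the motif, were not DE. The median log2FC over the 34 genes was 0.57 (1.48-fold), and over all genes it was -0.09. No value of one group reached those of the other in 11 genes with higher levels in TG Me-X04+ (4.80% of all genes) and in 2 with lower levels (3.14%), which were Sgsh and Acp2. Of the 24 genes that were not DE, 14 had a positive and 10 a negative log2FC.

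These counts depended on the scaling. Scaling libraries by the reads outside mitochondrial genes replaced the authors' own library scaling. The effects of leaving out mitochondrial reads and of dropping the authors' scaling were not told apart. The median over all genes moved from -0.09 to -0.49 and that of the hydrolases to 0.17, since this scaling shifts every gene by the same amount. Then 6 of the 34 were DE, 4 higher (Lyz2, Glb1, Scpep1 and Gusb) and 2 lower (Sgsh and Acp2), beside 6.67% of all genes. Among all 17951 genes this scaling gave 249 higher and 948 lower. After quantile normalization the median was 0.18, and 7 were DE, beside 4.61% of all genes. They were the same 4 higher and Sgsh, Acp2 and Lgmn lower, beside 421 higher and 407 lower among all genes. Naglu, Gm2a, Man2b1, Fuca1 and Ppt1 were thus not DE under either scaling. Fitting the 2 groups alone left 6 DE genes (Lyz2, Glb1, Gusb, Naglu and Gm2a higher, Sgsh lower), beside 2.62% of all genes. A term for the sets A and B gave 16 (15 higher, 1 lower), which included the 10, beside 11.9% of all genes.

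**Figure D1:**
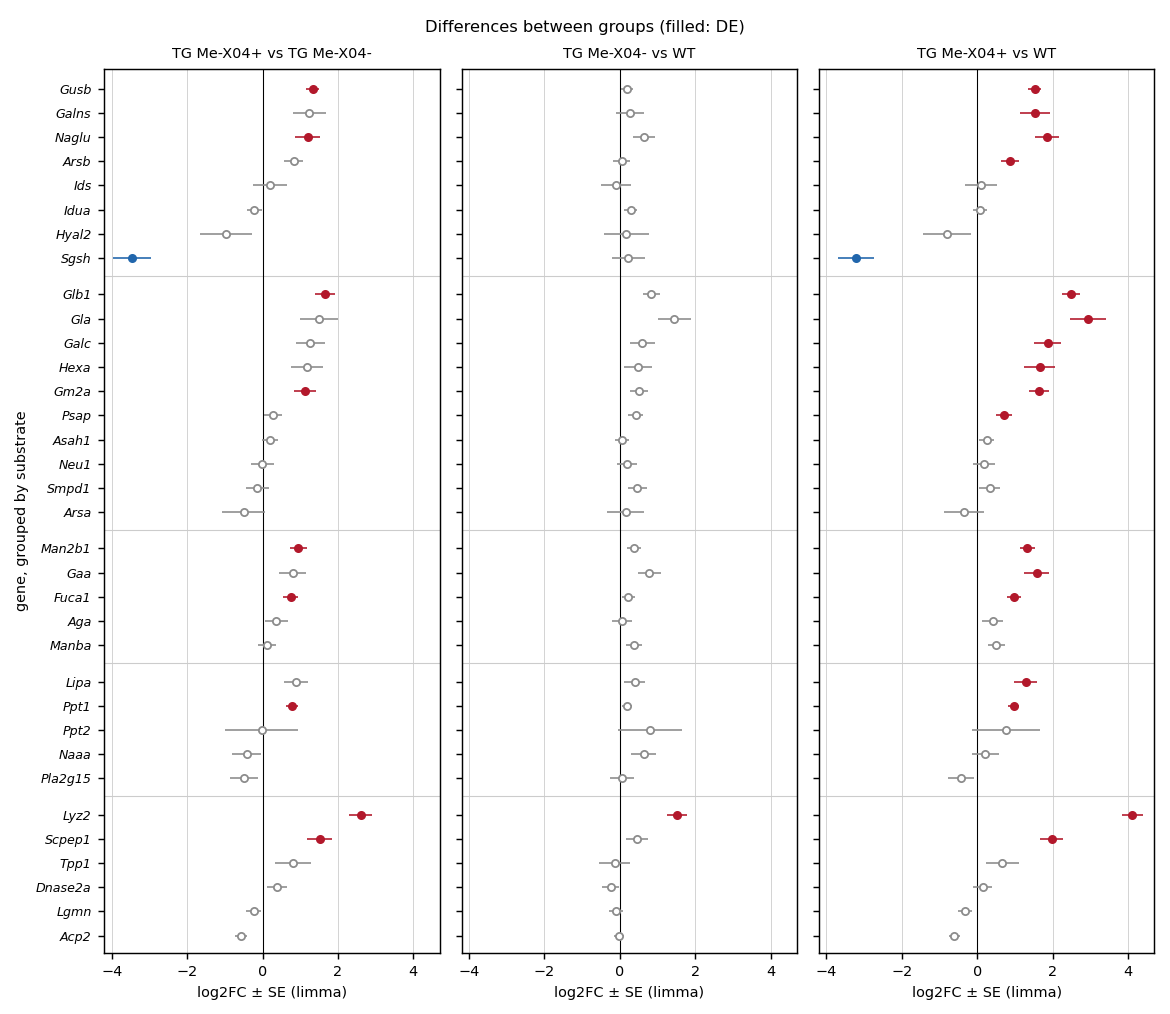
Differences between groups for the 34 hydrolase genes, 1 row per gene and 1 panel per comparison, as log2FC ± SE from limma; filled points are DE (red higher, blue lower), open points are not. TG Me-X04+ against TG Me-X04- shows 9 red points and 1 blue point (Sgsh), TG Me-X04- against WT a single red point (Lyz2), and TG Me-X04+ against WT 17 red points and 1 blue point (Sgsh).

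The enzymes that take apart glycosaminoglycans, the sulfated sugar chains of the matrix and cell surface, did not move as 1 group. Of 8 genes, Gusb and Naglu rose in TG Me-X04+ and Sgsh fell. Sgsh (N-sulfoglucosamine sulfohydrolase, which removes the N-linked sulfate from heparan sulfate, chr11:119343425-119355536 in GRCm38) stood at -3.01, -3.15, -1.37 and -1.88 log2 RPKM in TG Me-X04+, against -0.07, 1.09, 1.82, 1.40 and 1.29 in the TG Me-X04- libraries and -0.22 to 1.74 (median 1.14) in WT. Its 4 values in TG Me-X04+ lay below every value of the other groups, at 6 to 37 reads per library against 68 to 426 in TG Me-X04- and 55 to 336 in WT. The log2FC was -3.46 ± 0.51 (SE, adjusted p = 0.000983), and Sgsh was DE under each of the 22 alternatives that kept it, with log2FC from -3.85 to -1.40. At so few reads the log2 RPKM include a small number added to every count, so the log2FC understates the change. On the opposite strand, exons of Card14 cover 21.6% of the exonic bases of Sgsh, and strand use in the counting was not stated. Card14 itself stood between -5.59 and -4.12 log2 RPKM in TG Me-X04+ and between -3.96 and -0.90 in TG Me-X04- (log2FC -2.71 ± 0.90 (SE), adjusted p = 0.0946).

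Naglu acts at a later step on the same chain, where it removes the terminal N-acetylglucosamine of heparan sulfate. Its levels were 3.63, 4.54, 4.35 and 3.99 log2 RPKM in TG Me-X04+, against 3.02, 2.68, 2.78, 3.07 and 3.06 in the TG Me-X04- libraries and 1.31 to 2.92 (median 2.65) in WT. Every TG Me-X04+ library was above every other library, with a log2FC of 1.20 ± 0.33 (SE, adjusted p = 0.0425). The call was lost without any 1 of 8 of the 9 libraries (adjusted p 0.0600 to 0.125) and held without TG Me-X04+ replicate 1. The 3 WT libraries of set A were lower than all others in Naglu.

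Gusb (beta-glucuronidase, which removes glucuronic acid from several glycosaminoglycans) rose as well. Its levels were 5.47, 6.36, 6.16 and 6.28 log2 RPKM in TG Me-X04+, against 4.71, 4.57, 4.89, 4.71 and 4.79 in the TG Me-X04- libraries and 4.43 to 4.69 (median 4.55) in WT. The groups did not overlap, TG Me-X04+ replicate 1 was the lowest of its group, and the log2FC was 1.33 ± 0.18 (SE, adjusted p = 0.000493), DE under all 23 alternatives.

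The other glycosaminoglycan enzymes were not DE between the TG groups. Galns, which desulfates keratan sulfate and chondroitin sulfate, had a log2FC of 1.25 ± 0.43 (SE, adjusted p = 0.104) with TG Me-X04+ values of 0.84, 2.73, 1.91 and 1.85 log2 RPKM against 1.05, 0.42, 0.32, 1.12 and 0.02. Arsb (arylsulfatase B, which desulfates dermatan sulfate) had a log2FC of 0.83 ± 0.26 (SE, adjusted p = 0.0690) with no overlap of the groups, and a long RNA gene on the opposite strand, Gm26527, covers 32.3% of its exonic bases. Ids and Idua, which remove the sulfate of iduronic acid and iduronic acid itself, had a log2FC of 0.20 ± 0.46 (SE, adjusted p = 0.866) and of -0.22 ± 0.20 (SE, adjusted p = 0.605). Hyal2, a hyaluronidase, was low in all groups, at -2.08, -1.50, -0.94 and 0.07 log2 RPKM in TG Me-X04+, against -0.69, -1.65, 1.00, 1.11 and -0.50 in the TG Me-X04- libraries and -1.87 to 0.71 (median 0.25) in WT. The Hyal2 values overlapped between the groups, with a log2FC of -0.97 ± 0.68 (SE, adjusted p = 0.496).

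**Figure D2:**
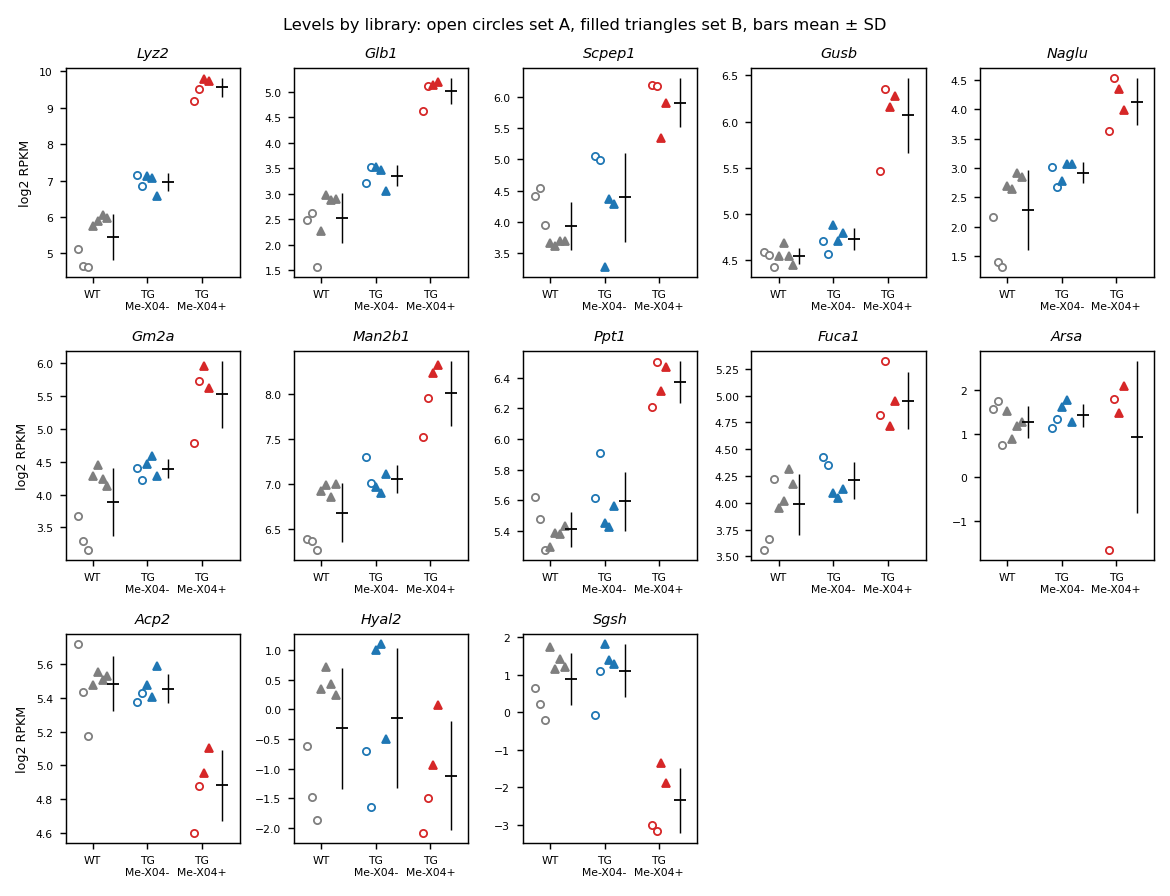
Levels (log2 RPKM) in every library of the 10 DE genes and of the 4 genes with the lowest log2FC between the TG groups (Sgsh is in both), ordered by log2FC; open circles are set A, filled triangles set B, and bars show mean ± SD. From Lyz2 to Fuca1 every red TG Me-X04+ point lies above the TG Me-X04- points, in Acp2 and Sgsh every one lies below, and in Arsa and Hyal2 they overlap.

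Among the 10 genes of sphingolipid breakdown, the lipids of membranes and myelin, Glb1 and Gm2a were DE and higher, and none was lower. Glb1 (beta-galactosidase, which splits GM1 ganglioside and keratan sulfate, chr9:114401076-114474898) had levels of 4.63, 5.12, 5.12 and 5.19 log2 RPKM in TG Me-X04+, against 3.20, 3.52, 3.52, 3.46 and 3.06 in the TG Me-X04- libraries and 1.56 to 2.97 (median 2.63) in WT. The 3 groups of Glb1 values were fully apart, WT lowest and TG Me-X04+ highest, and the log2FC of TG Me-X04+ over TG Me-X04- was 1.66 ± 0.26 (SE, adjusted p = 0.00139), DE under all 23 alternatives. Gm2a (the GM2 activator, which hands GM2 ganglioside to hexosaminidase A) had levels of 4.78, 5.73, 5.95 and 5.63 log2 RPKM in TG Me-X04+, against 4.41, 4.22, 4.47, 4.58 and 4.29 in the TG Me-X04- libraries and 3.16 to 4.44 (median 4.13) in WT. All TG Me-X04+ values exceeded the others, TG Me-X04+ replicate 1 by least, with a log2FC of 1.13 ± 0.29 (SE, adjusted p = 0.0275). The call of Gm2a was lost without TG Me-X04- replicate 2 or 5 or TG Me-X04+ replicate 2, 3 or 4 (adjusted p 0.0524 to 0.0788).

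Of the 8 other genes of this class, 5 had a positive log2FC, and none passed the test. Hexa, the alpha subunit of hexosaminidase A, had a log2FC of 1.18 ± 0.43 (SE, adjusted p = 0.130), with TG Me-X04+ levels of 6.15, 7.26, 8.39 and 8.19 and TG Me-X04- levels of 5.91, 6.09, 6.76, 6.63 and 6.23 log2 RPKM. The galactosidase of globotriaosylceramide, Gla, had a log2FC of 1.50 ± 0.50 (SE, adjusted p = 0.0966), and TG Me-X04- replicate 2 (2.34) lay among its TG Me-X04+ values of 2.74, 2.44, 2.11 and 1.76. For Galc, which removes galactose from the galactosylceramide of myelin, it was 1.27 ± 0.38 (SE, adjusted p = 0.0627), with 1260 to 2055 reads in TG Me-X04+. Psap, the precursor of the saposins, gave 0.28 ± 0.23 (SE, adjusted p = 0.574) and Asah1 (acid ceramidase) 0.19 ± 0.21 (SE, adjusted p = 0.695).

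Neuraminidase 1 (Neu1), which removes sialic acid, had a log2FC of -0.0047 ± 0.30 (SE, adjusted p = 0.997), and Smpd1 (acid sphingomyelinase) one of -0.14 ± 0.30 (SE, adjusted p = 0.854). Arsa (arylsulfatase A, which desulfates sulfatide) stood at -1.67, 1.79, 1.49 and 2.11 log2 RPKM in TG Me-X04+, against 1.13, 1.35, 1.63, 1.77 and 1.27 in the TG Me-X04- libraries and 0.74 to 1.76 (median 1.26) in WT. Its TG Me-X04+ replicate 1 (14 reads) was far below all other libraries, and the other 3 TG Me-X04+ values lay within or above the range of TG Me-X04-. The log2FC was -0.50 ± 0.56 (SE, adjusted p = 0.697), and without that library it was 0.37. An antisense gene, C230037L18Rik, covers 18.8% of the exonic bases of Arsa.

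All 5 enzymes of glycoproteins and glycogen had a positive log2FC, and Man2b1 and Fuca1 were DE. Man2b1 (lysosomal alpha-mannosidase, which trims mannose from N-glycans) had levels of 7.52, 7.96, 8.24 and 8.33 log2 RPKM in TG Me-X04+, against 7.30, 7.02, 6.97, 6.90 and 7.11 in the TG Me-X04- libraries and 6.27 to 7.00 (median 6.86) in WT. The groups did not overlap, with a log2FC of 0.95 ± 0.22 (SE, adjusted p = 0.0178), and the adjusted p was 0.0507 without TG Me-X04+ replicate 3. The call of Man2b1 was lost under quantile normalization (log2FC 0.23, adjusted p = 0.743) and with the 2 groups alone (adjusted p = 0.0598). Scaling by reads outside mitochondrial genes gave 0.56 (adjusted p = 0.215). Fuca1 (alpha-L-fucosidase) had levels of 4.82, 5.33, 4.71 and 4.95 log2 RPKM in TG Me-X04+, against 4.43, 4.36, 4.09, 4.04 and 4.13 in the TG Me-X04- libraries and 3.56 to 4.32 (median 4.01) in WT. Its TG Me-X04+ values were all above the others, with a log2FC of 0.74 ± 0.20 (SE, adjusted p = 0.0345), and the call was lost under median centring, with the replicate block (log2FC 0.75, adjusted p = 0.0716) and without TG Me-X04- replicate 3, 4 or 5 or TG Me-X04+ replicate 2 or 4 (adjusted p 0.0586 to 0.111).

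Gaa (acid alpha-glucosidase, which frees glucose from glycogen) had no overlap between the groups but was not DE, with a log2FC of 0.80 ± 0.35 (SE, adjusted p = 0.223). It lies on chromosome 11 close to Sgsh (chr11:119267887-119285454), and the estimates of these neighbours have opposite signs. Aga and Manba, which cut the asparagine-linked core and the last beta-mannose of N-glycans, had a log2FC of 0.36 ± 0.30 (SE, adjusted p = 0.584) and 0.12 ± 0.24 (SE, adjusted p = 0.839).

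Of the 5 enzymes of lipids and fatty acyl groups, Ppt1 was DE and higher. Ppt1 (palmitoyl-protein thioesterase 1, which strips palmitate from proteins) had levels of 6.21, 6.50, 6.31 and 6.47 log2 RPKM in TG Me-X04+, against 5.62, 5.91, 5.45, 5.43 and 5.57 in the TG Me-X04- libraries and 5.28 to 5.62 (median 5.38) in WT. The rise was small against a narrow spread, 0.78 ± 0.15 (SE, adjusted p = 0.00676), a 1.72-fold difference. Ppt1 remained DE without any 1 of the 9 TG libraries, and WT libraries were not left out here. The call was lost under quantile normalization (log2FC 0.22, adjusted p = 0.535) and with the 2 groups alone (adjusted p = 0.0568). It was also lost under scaling by reads outside mitochondrial genes (log2FC 0.39, adjusted p = 0.148). Lipa, the acid lipase of cholesteryl esters and triglycerides, had a log2FC of 0.89 ± 0.32 (SE, adjusted p = 0.120).

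Ppt2, Naaa (which hydrolyses N-acylethanolamines) and Pla2g15 (a phospholipase) did not pass the test, with a log2FC of -0.02 ± 0.97 (SE, adjusted p = 0.994), -0.42 ± 0.38 (SE, adjusted p = 0.616) and -0.48 ± 0.37 (SE, adjusted p = 0.538). Naaa in TG Me-X04+ replicate 1 was at -0.09 log2 RPKM, and at 1.76 to 1.97 in the other 3. Ppt2 shares 36.6% of its exonic bases with Gm20460 on the same strand, and reads cannot be assigned to either with certainty.

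The last class holds proteases, a phosphatase, a nuclease and lysozyme, of which Lyz2 and Scpep1 were DE and higher. Lyz2 (lysozyme M, which cuts the peptidoglycan of bacterial walls and is made by macrophages, monocytes and neutrophils, chr10:117277331-117282321) had levels of 9.20, 9.53, 9.78 and 9.73 log2 RPKM in TG Me-X04+, against 7.16, 6.86, 7.12, 7.07 and 6.59 in the TG Me-X04- libraries and 4.62 to 6.06 (median 5.76) in WT. The 3 groups were fully apart, and TG Me-X04+ was 6.07-fold above TG Me-X04- (log2FC 2.60 ± 0.30 SE, adjusted p = 0.000190), DE under all 23 alternatives. Of its sequence words of 50 bases, 15.4% also occur in Lyz1, whose own log2FC was 2.42 ± 0.70 (SE, adjusted p = 0.0516), so part of the reads cannot be assigned to either with certainty. Beside Lyz2, none of the 6 listed markers of monocytes and border macrophages was DE, with a log2FC of 1.17 for Lyve1, 0.48 for F13a1, 0.47 for Mrc1, 0.43 for Pf4, -0.064 for Cd163 and -0.93 for Ccr2 (adjusted p 0.0812 to 0.986). The neutrophil markers S100a8 (log2FC 1.61, adjusted p = 0.510) and S100a9 (log2FC 1.72, adjusted p = 0.565) were not DE either, and together they stood at 0.321 to 19.6 RPKM in TG Me-X04- and 0.321 to 7.49 RPKM in TG Me-X04+. The part of other cells in the Lyz2 difference was not tested.

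Scpep1, a serine carboxypeptidase, had levels of 6.20, 6.18, 5.35 and 5.91 log2 RPKM in TG Me-X04+, against 5.05, 4.99, 3.27, 4.37 and 4.28 in the TG Me-X04- libraries and 3.61 to 4.54 (median 3.69) in WT. Every TG Me-X04+ value of Scpep1 exceeded all other values, with a log2FC of 1.52 ± 0.33 (SE, adjusted p = 0.0111), and the call was lost only when the 2 groups were fitted alone (adjusted p = 0.0510). Acp2 (lysosomal acid phosphatase) had levels of 4.60, 4.88, 4.95 and 5.10 log2 RPKM in TG Me-X04+, against 5.37, 5.43, 5.48, 5.41 and 5.59 in the TG Me-X04- libraries and 5.17 to 5.72 (median 5.51) in WT. Each TG Me-X04+ value of Acp2 was below all others, with a log2FC of -0.57 ± 0.16 (SE, adjusted p = 0.0411) that passed the p threshold and not the fold threshold. Its exons overlap those of Ddb2 on the opposite strand over 12.6% of their length, and Ddb2 had a log2FC of -0.54 ± 0.17 (SE, adjusted p = 0.0714).

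Tpp1 (tripeptidyl peptidase 1) had a log2FC of 0.80 ± 0.47 (SE, adjusted p = 0.386). Lgmn (legumain, an asparaginyl endopeptidase that also matures cathepsins) had one of -0.23 ± 0.20 (SE, adjusted p = 0.604), and Dnase2a (the acid DNase) one of 0.39 ± 0.27 (SE, adjusted p = 0.481). Mast1 on the opposite strand covers 30% of the exonic bases of Dnase2a.

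Because same-numbered TG libraries share an animal, the difference could be read inside each of 4 mice. In animals 1 to 4 the median over the 34 genes was 0.22, 0.45, 0.75 and 0.70 on the log2 scale, while that over all genes was between -0.06 and 0.01. TG Me-X04+ exceeded TG Me-X04- in all 4 animals for 17 of the 34 genes, beside 15.1% of all genes, and fell below it in all 4 for 4 genes (Sgsh, Acp2, Lgmn and Pla2g15), beside 13.9% of all genes. The 17 included the 9 DE genes and also Galc, Hexa, Gla, Lipa, Gaa, Tpp1, Arsb and Dnase2a. Lyz2 differed by 2.04, 2.67, 2.66 and 2.66 and Sgsh by -2.94, -4.24, -3.19 and -3.28 in animals 1 to 4. For the 9 genes that rose, animal 1 gave the smallest difference, in Ppt1 together with animal 2 (0.59 in each). When the fit was blocked by replicate number, which also put WT libraries of other mice in the same blocks, 10 genes were DE. This stood beside 4.98% of all genes, with Sgsh lower and the rest higher. Of these 10 genes, 9 were the same as without the block: Fuca1 was lost and Galc gained.

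**Figure D3:**
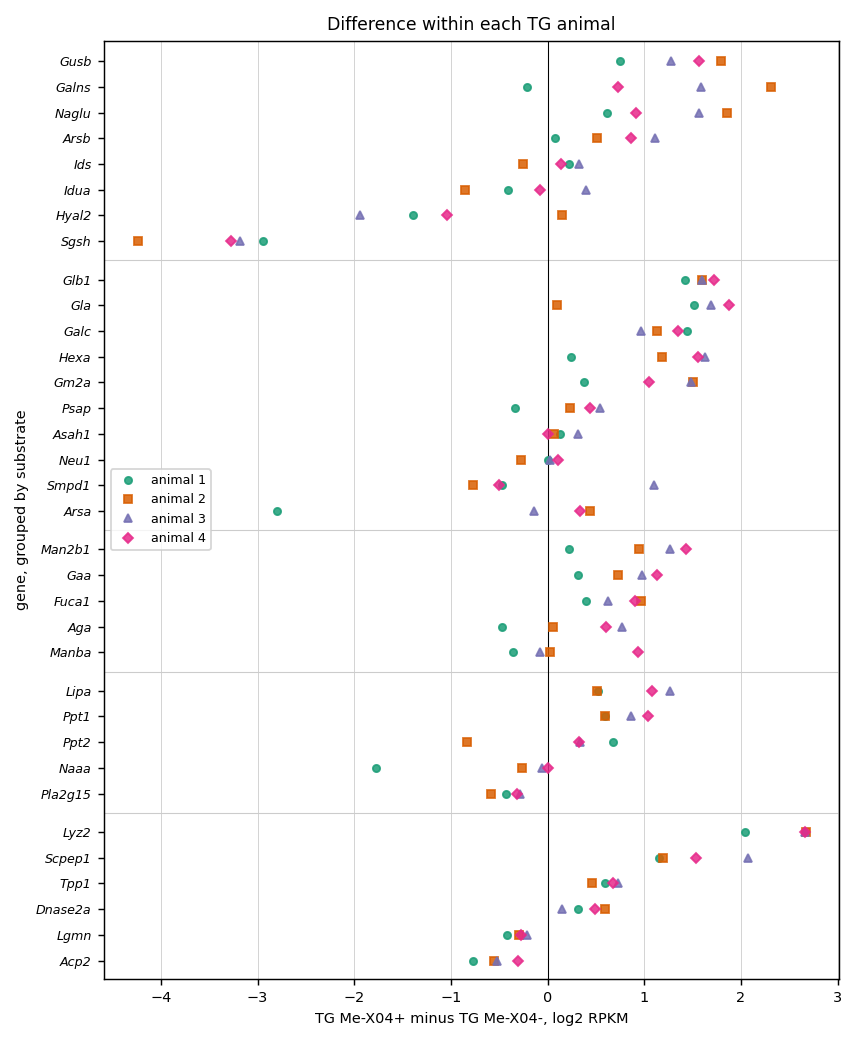
TG Me-X04+ minus TG Me-X04- in log2 RPKM for each of the 4 TG animals (1 marker each) and each hydrolase gene. Lyz2 lies between 2.04 and 2.67 and Sgsh between -4.24 and -2.94 in the 4 animals, while Arsa and Naaa are spread by animal 1 at -2.80 and -1.77.

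Read within the sets of libraries, the 10 DE genes had the same sign in both. Set A gave a median of 0.37 over the 34 genes, and set B gave 0.77 (all genes -0.10 and -0.02). Lyz2 differed by 2.35 in set A and 2.83 in set B, Glb1 by 1.51 and 1.81, and Sgsh by -3.59 and -3.13. The gap between the sets was widest for Arsa (-1.18 and 0.24), Naaa (-1.02 and 0.14), Aga (-0.21 and 0.85), Hexa (0.71 and 1.75) and Gla (0.81 and 1.85). Each set mean rests on 2 or 3 libraries, and the difference between the sets was not tested.

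**Figure D4:**
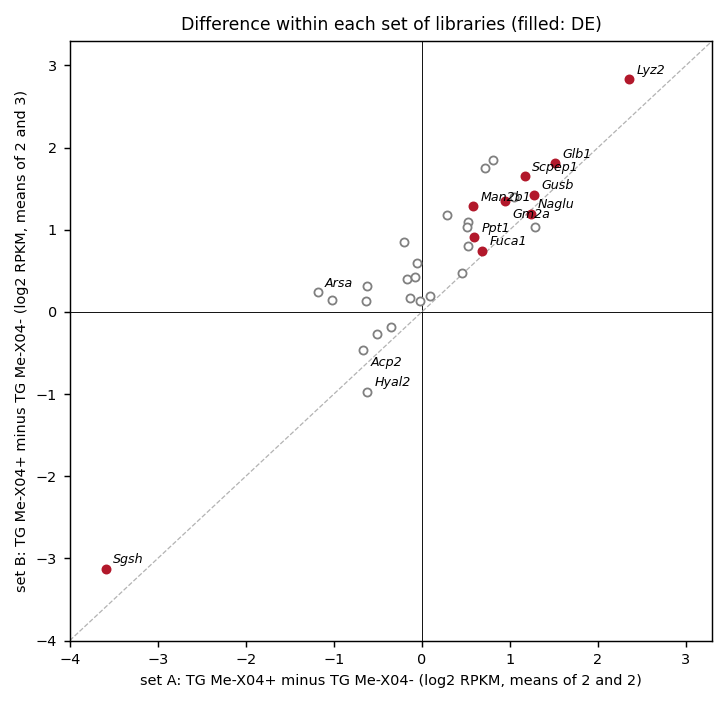
Difference TG Me-X04+ minus TG Me-X04- (log2 RPKM) in set A on the x axis and in set B on the y axis, 1 point per gene, with the 10 DE genes filled and the dashed line marking equal values. The DE genes have the same sign in both sets, from Sgsh (-3.59 and -3.13) to Lyz2 (2.35 and 2.83), and Arsa (-1.18 and 0.24) does not.

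To compare microglia without the dye between TG and WT mice, TG Me-X04- was set against WT. Of the 34 genes only Lyz2 was DE, beside 0.201% of all genes (0.189% DE and higher). Lyz2 was 2.86-fold higher in TG Me-X04- (log2FC 1.52 ± 0.27 SE, adjusted p = 0.0180), and the call was lost without TG Me-X04- replicate 1, 3 or 4 (adjusted p 0.0723 to 0.0820). Set A alone gave Lyz2 a difference of 2.21 and set B one of 1.00. Values did not overlap in 3 genes, all higher in TG Me-X04-, beside 0.652% of all genes: Lyz2, Glb1 (log2FC 0.83 ± 0.23 SE, adjusted p = 0.303) and Gaa (0.78 ± 0.31 SE, adjusted p = 0.785). Without adjustment 5 genes had a limma p under 0.05, beside 929 of all 17951 genes. The median log2FC was 0.28 over the 34 and 0.01 over all genes.

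The next genes by estimate between TG Me-X04- and WT were Gla (1.45 ± 0.44 SE, adjusted p = 0.440), Ppt2 (0.79 ± 0.85 SE, adjusted p = 0.999), Naglu (0.64 ± 0.29 SE, adjusted p = 0.937) and Naaa (0.63 ± 0.33 SE, adjusted p = 0.999). Within set A the median was 0.59 and within set B 0.14. Sgsh had a log2FC of 0.23 ± 0.45 (SE, adjusted p = 0.999) and Acp2 of -0.03 ± 0.14 (SE, adjusted p = 0.999) in this comparison. The 5 genes with a negative estimate were Acp2, Ids, Lgmn, Tpp1 and Dnase2a, from -0.24 to -0.03.

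TG Me-X04+ and WT differed in more of these genes, in a comparison that shares its libraries with the other comparisons. Of the 34 genes 18 were DE, beside 14.3% of all genes, with 17 higher (8.25%) and Sgsh lower (6.02%). The median log2FC was 0.73 over the 34 and -0.11 over all genes, with 0.67 inside set A and 0.72 inside set B. Groups did not overlap in 14 genes that were higher (6.56% of all genes) and in 2 that were lower (3.97%), again Sgsh and Acp2. Lyz2 was 17.4-fold higher (log2FC 4.12 ± 0.28 SE, adjusted p = 6.97e-08), Gla 7.68-fold (log2FC 2.94 ± 0.47 SE, adjusted p = 0.000327) and Glb1 5.62-fold (log2FC 2.49 ± 0.25 SE, adjusted p = 4.09e-06).

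Gla rose from a low level. It stood between -1.57 and 0.45 log2 RPKM in WT (15 to 72 reads) and between 1.76 and 2.74 in TG Me-X04+ (259 to 320 reads). Scpep1 had a log2FC of 1.97 ± 0.30 (SE, adjusted p = 0.000250), Galc of 1.86 ± 0.36 (SE, adjusted p = 0.00157), Naglu of 1.84 ± 0.31 (SE, adjusted p = 0.000550), Hexa of 1.65 ± 0.40 (SE, adjusted p = 0.00901), Gm2a of 1.64 ± 0.27 (SE, adjusted p = 0.000399) and Gaa of 1.58 ± 0.33 (SE, adjusted p = 0.00283). Of these, Galc, Naglu, Hexa with Gm2a, and Gaa act on galactosylceramide, heparan sulfate, GM2 ganglioside and glycogen in that order.

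The remaining DE genes of the comparison with WT were Galns, Gusb, Man2b1, Lipa, Fuca1, Ppt1, Arsb and Psap, with log2FC from 0.70 (Psap) to 1.52 (Galns and Gusb). Psap (0.70 ± 0.22 SE, adjusted p = 0.0362) lost its call without any 1 of 7 of the 11 libraries (adjusted p 0.0545 to 0.118) and stood at -0.076 under quantile normalization, and Galns and Arsb lost theirs without TG Me-X04+ replicate 2 (adjusted p 0.0652 and 0.0679). Sgsh had a log2FC of -3.23 ± 0.48 (SE, adjusted p = 0.000176). Acp2 again passed the p threshold and not the fold threshold (-0.60 ± 0.15 SE, adjusted p = 0.00936). Under quantile normalization 13 genes were DE, 10 higher and 3 lower, beside 14.3% of all genes (1380 higher and 1186 lower). Scaling by the reads outside mitochondrial genes gave 14, 12 higher and 2 lower, beside 17.2% of all genes (1009 higher and 2070 lower).

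The levels themselves, which are per gene length and so can be set side by side between genes, spanned a wide range. In WT, 13 of the 34 genes had a mean in the top 10% of all genes, with 17 among the TG Me-X04- means and 18 among those of TG Me-X04+. Lgmn was the highest in both Me-X04 negative groups (WT 8.20 ± 0.19 and TG Me-X04- 8.09 ± 0.26 log2 RPKM, mean ± SD), followed by Psap (7.41 ± 0.27 and 7.83 ± 0.16). In TG Me-X04+ Lyz2 came first (9.56 ± 0.27), before Psap (8.11 ± 0.47), Man2b1 (8.01 ± 0.36) and Lgmn (7.87 ± 0.22), and the last 3 lay within their SDs of each other. The lowest means were those of Gla in WT (-0.68 ± 0.63), Hyal2 in TG Me-X04- (-0.15 ± 1.18) and Sgsh in TG Me-X04+ (-2.35 ± 0.87).

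**Figure D5:**
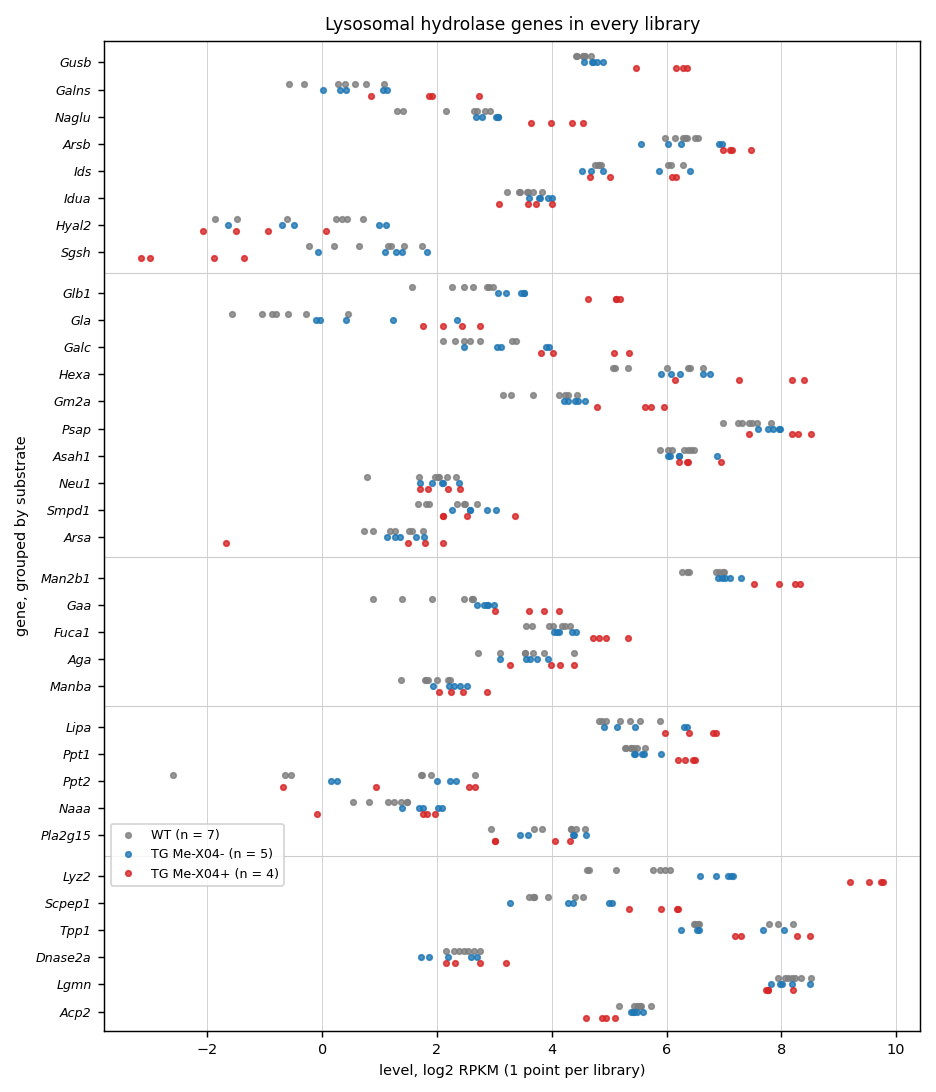
Level in log2 RPKM of the 34 hydrolase genes in each of 16 libraries, grouped by substrate and ordered by log2FC between the TG groups; gray WT, blue TG Me-X04-, red TG Me-X04+. Lyz2 moves from 4.62 to 6.06 in WT to 9.20 to 9.78 in TG Me-X04+, Sgsh from -0.22 to 1.74 in WT to -3.15 to -1.37, and Lgmn stays between 7.74 and 8.51 in all libraries.

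The share of Lyz2 within the class differed between the groups. It held 1.79% to 5.19% of the summed RPKM of the 34 genes in WT, 6.05% to 9.55% in TG Me-X04- and 23.6% to 28.8% in TG Me-X04+, with no overlap between groups. The 34 genes together held 0.234% to 0.297% of the summed RPKM of all genes in WT, 0.241% to 0.370% in TG Me-X04- and 0.196% to 0.478% in TG Me-X04+. Relative to the genes outside the mitochondrial genome these shares were 0.319% to 0.453%, 0.370% to 0.519% and 0.396% to 0.747%. Both shares overlapped between the groups.

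Other lysosomal enzymes and the proteins that deliver or mature hydrolases were read from a separate list. Of 26 other enzymes 25 were listed (without Acp5), and 5 were DE between the TG groups, all higher in TG Me-X04+ (3.44% of all genes), with a median log2FC of 0.60. Hpse (heparanase, which cleaves heparan sulfate) had the highest log2FC, 3.28 ± 0.65 (SE, adjusted p = 0.00657), from -2.34 ± 0.97 log2 RPKM in TG Me-X04- to 0.94 ± 1.29 in TG Me-X04+ (mean ± SD). Smpdl3a (1.95 ± 0.32 SE, adjusted p = 0.00194), Pld3 (1.67 ± 0.42 SE, adjusted p = 0.0258), Dpp7 (1.30 ± 0.35 SE, adjusted p = 0.0392) and Man2b2 (0.78 ± 0.21 SE, adjusted p = 0.0382) were the others, and Plbd1 had the lowest log2FC (-1.86 ± 0.95 SE, adjusted p = 0.314).

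Of 13 delivery and maturation genes 12 were listed (without Igf2r), and 4 were DE between the TG groups, all higher (again beside 3.44% of all genes). Gnptab (1.35 ± 0.30 SE, adjusted p = 0.0121) and Gnptg (1.16 ± 0.30 SE, adjusted p = 0.0316) encode the phosphotransferase that makes the mannose 6-phosphate tag. Ctsa (1.26 ± 0.30 SE, adjusted p = 0.0207) shields Glb1 and Neu1 in the lysosome, and Npc2 (1.37 ± 0.34 SE, adjusted p = 0.0240), which carries cholesterol, had the highest log2FC of these genes. Sumf1, which activates the sulfatases Sgsh, Ids, Arsa, Arsb and Galns, had a log2FC of 0.29 ± 0.21 (SE, adjusted p = 0.512), and the lowest was that of Sort1 (-0.12 ± 0.18 SE, adjusted p = 0.780). In TG Me-X04- against WT none of the 37 listed genes was DE by limma, beside 0.201% of all genes. An unadjusted limma p under 0.05 was found for 5 of the 37, beside 929 of all 17951 genes. In TG Me-X04+ against WT 16 of the 37 were DE and higher (8.25% of all genes), none lower (6.02%). Among these, Hpse had the highest log2FC, 5.84 ± 0.61 (SE, adjusted p = 7.08e-06), from -4.90 ± 0.51 log2 RPKM in WT (mean ± SD). Lyz1 came next with 4.02 ± 0.65 (SE, adjusted p = 0.000399). Pld3 had a log2FC of 2.38 ± 0.39 (SE, adjusted p = 0.000408), Smpdl3a of 2.21 ± 0.30 (SE, adjusted p = 8.12e-05) and Gnptab of 2.03 ± 0.28 (SE, adjusted p = 7.96e-05).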

How the data were processed

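RNA of sorted microglia was sequenced in 16 libraries. Per the labels and the study's methods, the authors trimmed reads with Trim Galore 0.4.4, aligned them with STAR 2.5.4b to GRCm38 (multimapping reads kept), assigned them to Gencode genes with featureCounts, filtered low genes with filterByExpr and scaled libraries by TMM in edgeR 3.24.3. The authors deposited log2 RPKM values per library for 17951 genes with gene lengths, and columns of their own comparisons (log2 fold changes, mean levels, test statistics, p-values), which were not used. The values of 1 gene of the other list are not reported here. The equal steps of the deposited values gave back the reads (100% whole within 0.01).

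Tests on these log2 values used limma (version 3.58.1, R version 4.3.3, trended variance, 3 groups in 1 fit, two-sided, Benjamini-Hochberg over all genes). The study's own quasi-likelihood count test was not run here, and the recovered reads entered limma voom as an alternative. The tests were checked on simulated data. The rule named every gene of the list. All library values were given for those DE in TG Me-X04+ vs TG Me-X04- or TG Me-X04- vs WT and the 4 lowest by log2FC. Of the other list it named the DE, highest and lowest genes, in full only between the TG groups. Members and lists were chosen with earlier results of these data known. P-values cover the spread between libraries, 1 per animal label and sort.

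Alternatives were no variance trend, robust variance, library weights, quantile normalization, median centring, and scaling by reads outside mitochondrial genes in place of TMM. Others were pseudocounts of 1 and 0.1, filters at a mean of 0 and 2, and the 2 groups alone. No fold threshold, limma voom, the replicate block and a set term were also used. Each library of the 2 compared groups was left out in turn. The pairing comes from the animal labels of the TG libraries (WT numbers are other animals), and deviations of same-numbered TG libraries correlated with r from 0.292 to 0.329 across genes. Coordinates are those of Gencode M21 on GRCm38, a later release than the authors', and promoters of RefSeq on GRCm38.p6. Overlaps were counted on exons, and shared sequence as words of 50 bases on either strand. Plots used matplotlib (3.10.9) under Python (3.11.15).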

Additional observations from a re-analysis of the deposited data

Results flagged for a closer look

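In 102 gene and group combinations (34 genes, 3 groups), 6 held a library that stood apart from the rest of its group by Dixon's test at the 95% level, and chance alone flags about 5% of groups. In TG Me-X04+ replicate 1, Glb1 was at 4.63 log2 RPKM (nearest other library 5.12), Arsa at -1.67 (nearest 1.49) and Naaa at -0.088 (nearest 1.76), each the lowest of 4. Lgmn was the highest of 4 in TG Me-X04+ replicate 2, at 8.20 (nearest 7.76). Asah1 was the highest of 5 in TG Me-X04- replicate 2, at 6.88 (nearest 6.22). Neu1 was the lowest of 7 in WT replicate 3, at 0.78 (nearest 1.68). The 3 low values of TG Me-X04+ replicate 1 come from 1 library, which also had the fewest reads of its group (22430251).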

How the results depend on the processing

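Limits first: groups held 4 to 7 libraries, the sets A and B were drawn from these data, the share of mitochondrial reads was highest in TG Me-X04+, and log2FC of genes with few reads are understated. For the TG groups, the 10 DE hydrolases became 6 when scaled by reads outside mitochondrial genes, beside 6.67% of all genes. These 10 became 6 with the 2 groups alone (2.62% of all genes) and 16 with a term for the sets (11.9%). Their median of 0.57 became 0.18 with quantile normalization, 0.17 with the mitochondrial scaling, 0.79 for genes with a mean log2 RPKM of at least 2, and 0.37 and 0.77 within sets A and B, a split added after the data were seen. For TG Me-X04- against WT the median of 0.28 became 0.59 within set A, and for TG Me-X04+ against WT the median of 0.73 became 0.37 with quantile normalization and 0.43 with the mitochondrial scaling. Psap in TG Me-X04+ against WT turned to -0.076 with quantile normalization. The cause was not tested. Leaving out 1 library gave 7 to 12 DE hydrolases (median 0.50 to 0.63) for the TG groups, 0 to 1 (median 0.25 to 0.35) between TG Me-X04- and WT, and 15 to 18 (median 0.71 to 0.92) between TG Me-X04+ and WT. The other 143 counts and medians stayed within 1.5 times the count or within 0.20 (the SD between replicates) of the median. Adding the replicate block, the number of DE hydrolases was 10, 1 and 15, beside 4.98%, 0.1% and 14.1% of all genes. The median was 0.51, 0.34 and 0.70 in the same comparisons. This block also joined WT libraries to TG animals of the same number, which are other mice. The comparisons with WT therefore hold no real pairing. Of 702 values of single genes under an alternative, 66 lost a call with the direction kept, and Psap lost its call where it turned. Over all genes, the 986 DE for the TG groups became 470 with the 2 groups alone, 2142 with the set term and 552 to 1021 without 1 library (552 without TG Me-X04- replicate 5, 624 without TG Me-X04+ replicate 2). The 36 between TG Me-X04- and WT became 13 with log2(RPKM + 1), 19 and 16 with the filters at a mean of 0 and 2, 18 with the block, 101 with the set term, 175 with library weights and 19 to 33 without 1 library (19 without TG Me-X04- replicate 1, 23 without replicate 3 or 4). The 2562 between TG Me-X04+ and WT became 3919 with the set term and 2124 to 2605 without 1 library.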

Other observations

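Apart from the groups, 4 of the 34 hydrolase genes separated the sets A and B in all 16 libraries. Ids stood between 5.87 and 6.41 log2 RPKM in the 7 libraries of set A and between 4.52 and 5.01 in the 9 of set B, and Tpp1 between 7.69 and 8.51 in set A and between 6.25 and 7.29 in set B. Ppt2 (-2.60 to 0.94 and 1.72 to 2.66) and Pla2g15 (2.94 to 3.82 and 4.06 to 4.60) were lower in set A. None of these 4 was DE between groups. Over all genes, 5.36% were apart with set A higher and 4.79% with set B higher, and the sets were drawn from these same values, so this is a description.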
